A study of Mus musculus with 6 samples.

Results

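The nuclear-encoded genes of the mitochondrial respiratory chain were examined in first mandibular molars of C57BL/6 mice at postnatal day 4. They were chosen by symbol, as the genes whose names mark them as subunits of complex I (Nduf genes of the a, b, c, s and v series), complex II (Sdha to Sdhd), complex III (Uqcr), complex IV (Cox4 to Cox8 series) or complex V (Atp5), leaving out Ndufa4l2. The rule found 82 genes among the 17582 in the expression table. Of these, 80 reached 1 FPKM (fragments per kilobase of transcript, divided by library size) in at least 3 libraries and were tested with 11934 genes in all. The other 2, Cox8b and Cox8c, are given by their values.

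Messenger RNA was sequenced in 3 libraries of genotype K14-Cre; Wnt10aflox/flox, called knockout here, and in 3 libraries of littermates that carried the same Wnt10aflox/flox alleles with no Cre listed, called control. The question is what changes in the tooth once Wnt10a, a secreted Wnt ligand, is deleted by a recombinase under the keratin 14 promoter. That promoter is active in epithelium, so mesenchymal cells of the tooth keep the gene. The labels do not say whether a library holds 1 animal or a pool, so the error terms measure the spread between these libraries, which may be technical.

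The respiratory chain passes electrons from NADH and succinate to oxygen through complexes I to IV, which pump protons across the inner mitochondrial membrane, complex II excepted. Complex V, the ATP synthase, makes ATP from the returning protons. Most subunits are nuclear-encoded and imported, and a few central ones come from mitochondrial DNA. Ameloblasts, the enamel-forming cells of a molar, carry abundant mitochondria. Many of these nuclear genes are known targets of the transcription factors NRF1, GABPA (also called NRF-2) and YY1.

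Wnt10a, on chromosome 1 from 74791516 to 74804179 (plus strand, mm10), stood at 19.39, 19.94 and 18.07 FPKM in knockout libraries 1 to 3 and at 33.61, 36.59 and 31.68 FPKM in control libraries 1 to 3. All knockout libraries lay below all control libraries, and Wnt10a fell by 0.79 on the log2 scale (SE 0.077, limma-trend, adjusted p = 0.00609). Estimated depth was 17960000 to 18460000 reads per library. Summed markers of ameloblasts were at 206269 to 244810 FPKM. Those listed for odontoblasts (Dspp, Dmp1, Col1a1 and Col1a2) were at 6617 to 10596 FPKM. RNA of both lists was thus present in every library. Col1a1 and Col1a2 are collagen genes, so the latter sum is not read as a measure of odontoblasts alone.

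The respiratory chain genes were abundant in the molar. Their median level over the 6 libraries was 82.8 FPKM, against 9.23 FPKM for all genes tested. With a listed transcript under 1000 bases, the median was 104 FPKM for members and 21.1 FPKM for other genes. The most abundant members were Atp5b, which encodes the catalytic beta subunit of ATP synthase, at a mean of 393 FPKM, and Cox4i1, the general isoform of the complex IV subunit 4, at 351 FPKM. Next came Cox6a1 at 339 FPKM and Cox8a at 304 FPKM, also general isoforms of complex IV subunits. In complex I the highest level was that of Ndufa4 at 208 FPKM, a subunit named for complex I and since assigned to complex IV. In complex III it was that of Uqcrh, the hinge protein, at 205 FPKM, and in complex II that of Sdhb, the iron-sulfur subunit, at 87.0 FPKM.

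Levels differed between complexes in the same order in both groups. The median member of complex V was at 202 ± 18.3 FPKM in knockout libraries and at 185 ± 8.50 FPKM in controls (SD, n = 3 each). The median member of complex IV was at 166 ± 13.4 and 150 ± 3.09 FPKM, and that of complex III at 112 ± 7.40 and 102 ± 7.85 FPKM. The median members of complex II, at 72.4 ± 4.17 and 67.9 ± 2.99 FPKM, and of complex I, at 64.9 ± 6.73 and 59.1 ± 4.26 FPKM, were lower. The median of complex II lay above that of complex I in every library, but the values of these last 2 complexes overlapped between knockout libraries. The lowest tested members were Cox6a2 at 0.927 FPKM and Cox7a1 at 1.74 FPKM, both of complex IV, and then Atp5s at 3.56 FPKM in complex V. Atp5s and Atp5sl carry the symbol of the synthase but are not classical subunits of it.

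**Figure D1:**
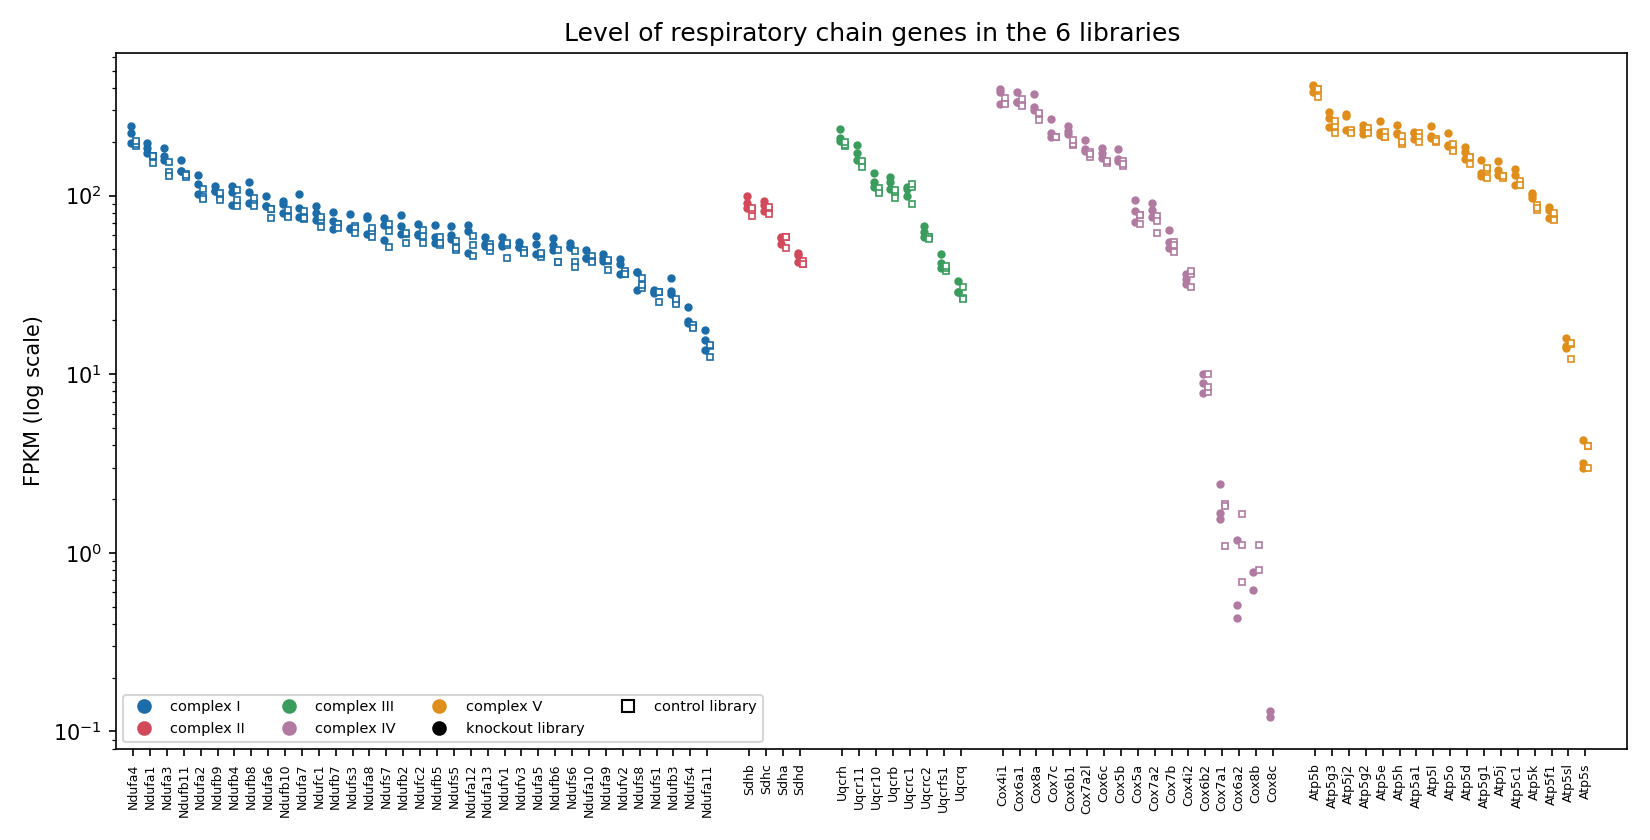
Level of 81 of the 82 genes (vertical axis, FPKM on a log scale), ordered by mean within each complex, with filled points for the 3 knockout and open squares for the 3 control libraries. The highest mean is that of Atp5b at 393 FPKM, and values of 0 (Cox8b in 2 libraries, Cox8c in 4) are not drawn.

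No respiratory chain gene passed the test between knockout and control, yet nearly all had a small positive fold change. With limma-trend on log2(FPKM + 1), 0 of the 80 members were called higher and 0 lower at an adjusted p of 0.05, where 0.0% of all genes tested were called higher and 0.00838%, which is Wnt10a alone, lower. The smallest adjusted p among the members was 0.693, and limma-voom on rebuilt reads also called 0. At an unadjusted p under 0.05, 18 members stood higher, against 2.99% of all genes tested, and 0 stood lower, against 2.71%. The count of members at that p was 3 once each library's own trend on transcript length was removed, as described below. It was 6 without knockout library 1, 9 without knockout library 2, 52 without knockout library 3, 5 without control library 1 and 12 without control library 3, and 30 with median-ratio scaling. For these settings no share of all genes tested is given beside the count, so the counts cannot be read as particular to the members. The log2 fold change was above 0 in 77 of 80 members, against 48.2% of all genes tested. Its median over the members was 0.14, with a range of -0.33 to 0.29, and over all genes tested it was -0.005.

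In 27 members all 3 knockout libraries lay above all 3 control libraries, where 4.8% of all genes tested did so. The reverse order was found in 0 members and in 5.35% of all genes tested. Short genes as a whole were more often higher without overlap. With a listed transcript under 1000 bases, 23 of 53 members and 97 of 741 other genes were so, and 0 and 18 had the reverse order. Of the 27, 11 belonged to complex I, 1 to complex II, 4 to complex III, 6 to complex IV and 5 to complex V. The 95% interval of the log2 fold change lay within 0.5 of 0 on either side in 79 of 80 members, the exception being Cox6a2. It lay wholly above 0 in 18, and the median SE was 0.081. The authors' deposited table, made with a test that no source used here names, has 64 of 81 members at a q under 0.05 and higher in the knockout, against 10.2% of 16662 genes. It has 0 members at that q and lower, against 14.1%.

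Among the complex I genes the accessory subunits had the largest differences. Ndufa3, an accessory subunit, stood at 183.75, 158.37 and 167.55 FPKM in the knockout libraries and at 135.15, 128.13 and 154.92 FPKM in the control libraries. The groups did not overlap, with knockout library 1 highest and control library 2 lowest. Its log2 fold change of 0.29 (SE 0.086) was the largest of all members and did not pass the test (limma-trend, adjusted p = 0.736). Ndufa1, another accessory subunit, was at 197.22, 183.56 and 173.97 FPKM against 151.44, 166.77 and 165.98 FPKM. Its groups did not overlap either, with a log2 fold change of 0.19. Ndufa4 was at 244.89, 223.25 and 196.22 FPKM against 188.62, 194.14 and 201.86 FPKM, and there knockout library 3 lay below control library 3.

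Core subunits of complex I, which carry the flavin and iron-sulfur centres or the quinone site, had smaller differences than Ndufa3 and Ndufa1 as deposited. Ndufs3 was at 70.0 ± 7.84 FPKM in knockout libraries and 65.0 ± 2.84 FPKM in controls (SD, n = 3 each). Ndufv1, the subunit that binds NADH, was at 54.9 ± 3.51 and 50.6 ± 5.15 FPKM, and Ndufs1, with the longest listed transcript of all members, at 29.0 ± 0.510 and 27.6 ± 1.95 FPKM. The log2 fold changes of Ndufs1, Ndufs3, Ndufs7, Ndufs8, Ndufv1 and Ndufv2 lay between 0.07 (Ndufs1) and 0.15 (Ndufv2). In each of them the groups overlapped, so these differences were within the spread between libraries. With the length trend removed Ndufv2 (0.098), Ndufs1 (0.070) and Ndufv1 (0.068) lay above Ndufa1 (0.048) and below Ndufa3 (0.11).

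Complex II, which also serves the tricarboxylic acid cycle, also held members with and without overlap. Sdhb was at 99.53, 91.34 and 85.48 FPKM in the knockout libraries and at 77.25, 82.91 and 85.45 FPKM in the control libraries. The groups did not overlap, though knockout library 3 and control library 3 were nearly equal, and the log2 fold change was 0.17 (SE 0.075, limma-trend, adjusted p = 0.869). Sdha, the flavoprotein that oxidises succinate, was at 57.62, 58.62 and 53.69 FPKM against 58.71, 58.66 and 50.84 FPKM, a log2 fold change of 0.017 with a 95% interval of -0.15 to 0.18. The membrane anchors Sdhc and Sdhd had log2 fold changes of 0.091 and 0.11, with overlapping groups.

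In complex III the fold changes of the small subunits Uqcr11, Uqcrb and Uqcrh as deposited were larger than those of the core proteins, an order that was lost with the length trend removed (0.046, 0.048 and 0.011, against -0.021 for Uqcrc1 and 0.078 for Uqcrc2). Uqcr11 was at 192.6, 173.21 and 158.06 FPKM in the knockout libraries and at 152.93, 155.7 and 144.8 FPKM in the control libraries, with no overlap and a log2 fold change of 0.20. Uqcrb was at 126.45, 118.55 and 108.75 FPKM against 104.37, 106.96 and 97.27 FPKM, again with no overlap and a log2 fold change of 0.19. Uqcrh had a log2 fold change of 0.15 with no overlap. The core protein Uqcrc1 was at 111.59, 108.98 and 100.08 FPKM against 111.12, 115.55 and 89.88 FPKM, a log2 fold change of 0.025. For Uqcrc2, the other core protein, and Uqcrfs1, the Rieske iron-sulfur protein that passes electrons to cytochrome c1, the log2 fold changes were 0.11 and 0.12, with overlapping groups.

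In complex IV the smallest p belonged to Cox6b1, which faces the intermembrane space and holds the enzyme's dimer together. Cox6b1 lies on chromosome 7 from 30616861 to 30626151 (minus strand, mm10). It was at 244.56, 230.65 and 220.28 FPKM in the knockout libraries and at 192.65, 193.27 and 204.13 FPKM in the control libraries. The groups did not overlap, and the log2 fold change was 0.24 (SE 0.068, limma-trend, adjusted p = 0.693). Cox8a, the general isoform of subunit 8, was at 371.42, 314.62 and 299.73 FPKM against 281.67, 291.2 and 265.04 FPKM, a log2 fold change of 0.23. With the length trend removed Cox6b1 and Cox8a were each at 0.090, and the groups overlapped in both. The abundant Cox4i1 was at 397.31, 378.78 and 327.21 FPKM against 328.13, 353.31 and 323.69 FPKM, with overlapping groups.

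In complex V the smallest p belonged to Atp5k, which encodes subunit e of the membrane sector, at chromosome 5 from 108433244 to 108434448 (minus strand, mm10). It was at 103.06, 100.49 and 96.53 FPKM in the knockout libraries and at 88.65, 83.14 and 85.52 FPKM in the control libraries. The groups did not overlap, with a log2 fold change of 0.22 (SE 0.064, limma-trend, adjusted p = 0.693). The listed transcript of Atp5k is 292 bases, the shortest of all members. The large subunits of the catalytic head had smaller differences as deposited. With the length trend removed Atp5k was at 0.028, Atp5b at 0.046 and Atp5a1 at 0.028. Atp5b was at 417.86, 411.56 and 382.43 FPKM against 394.14, 393.09 and 357.59 FPKM, and Atp5a1, the alpha subunit, at 226.93, 222.74 and 207.19 FPKM against 224.4, 213.38 and 199.64 FPKM. Their log2 fold changes were 0.082 and 0.044, and the groups overlapped in both.

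**Figure D2:**
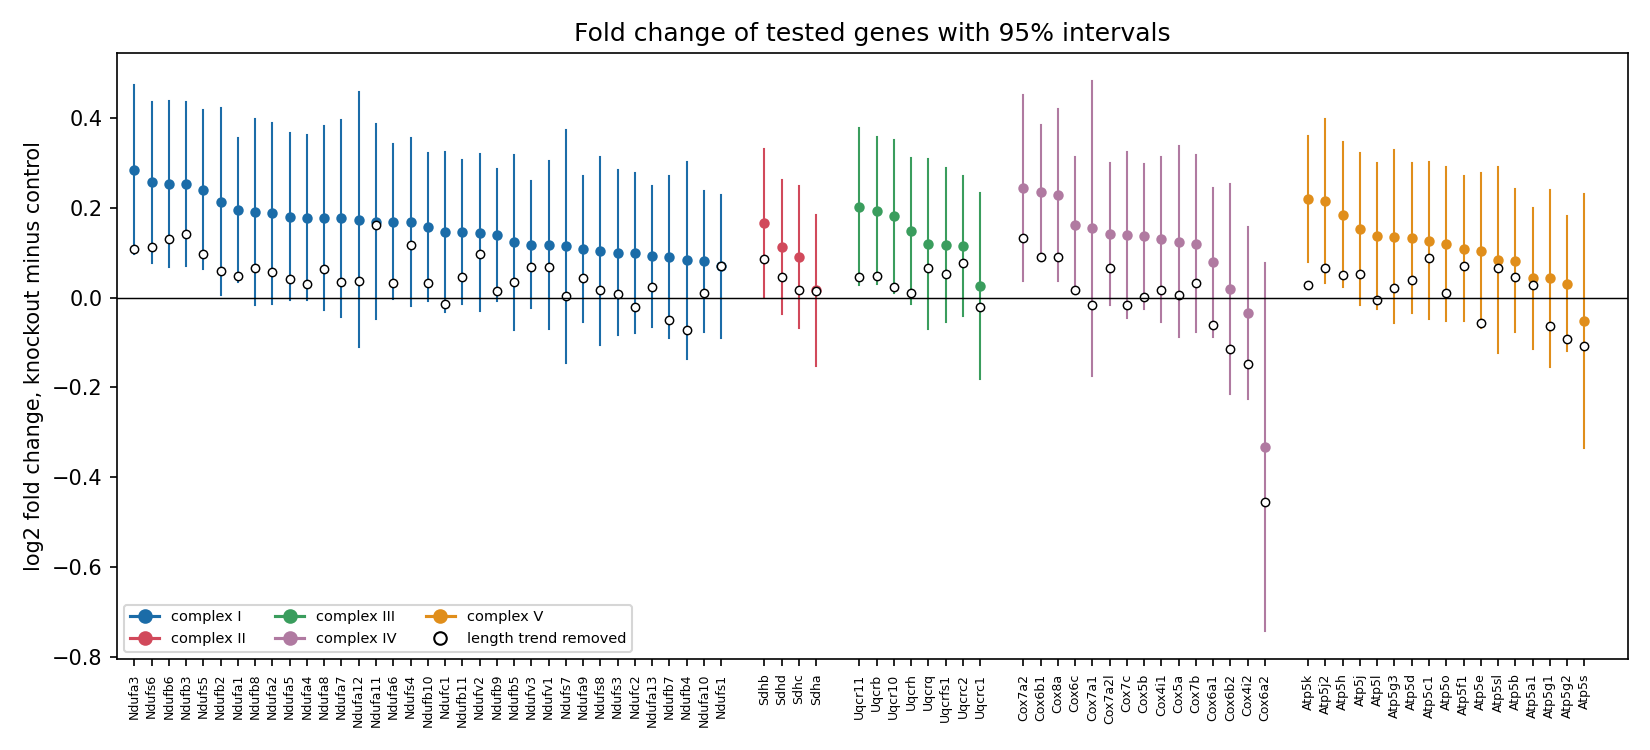
Log2 fold change of 79 of the 80 tested genes, knockout minus control on the log2(FPKM + 1) scale, as coloured points with 95% intervals, and with the trend on transcript length removed as open points. All coloured points but those of Cox6a2, Cox4i2 and Atp5s lie above 0, and most open points lie closer to 0 than the coloured ones.

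The size of the difference followed transcript length. Members had a median listed length of 725.5 bases, against 2911 bases for all genes tested, and 53 of the 80 were under 1000 bases. Short transcripts outside the respiratory chain stood higher in the knockout too: over 741 other genes under 1000 bases the median log2 fold change was 0.11, and 79.2% were above 0. Over the 11112 other genes of 1000 bases or more the median was -0.010. Members under 1000 bases had a median of 0.16 and longer members a median of 0.11. Spearman's correlation of fold change with length, across genes that are not independent replicates, was -0.54 over the 80 members and -0.43 over 11854 other genes. Both share the same 6 libraries.

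The fit was repeated with a smooth trend on log2 length removed from each library. The trend was that of the genes' deviations from their own means over the libraries, on the log2(FPKM + 1) scale. The median log2 fold change of the members was then 0.037, with a range of -0.46 to 0.16, and that of all genes tested was -0.001. It was above 0 in 64 of 80 members, against 49.4% of all genes tested. Of the members, 0 were called higher, as were 0.0% of all genes tested, and 0 lower, against 0.00838%. All 3 knockout libraries lay above all controls in 7 members, among them Ndufb3, Ndufb6, Sdhd, Uqcrc2, Cox7a2 and Atp5b, against 5.92% of all genes tested. They lay below in 1 member (Atp5g2), against 5.28%. The median without the length trend was 0.045 in complex I, 0.032 in complex II, 0.047 in complex III, 0.007 in complex IV and 0.028 in complex V. As deposited it had been 0.15, 0.10, 0.13, 0.14 and 0.12 in the same order.

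**Figure D3:**
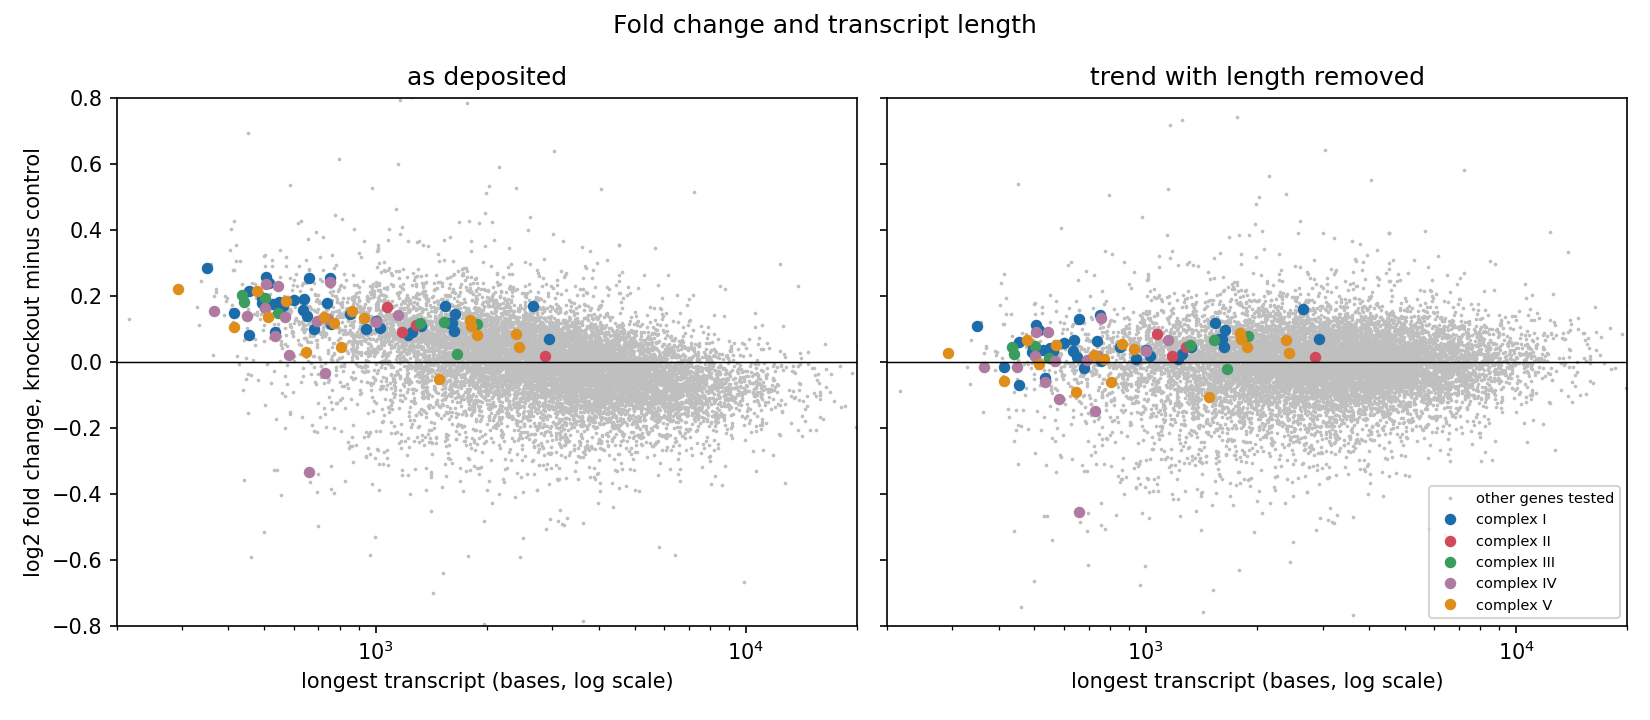
Log2 fold change (knockout minus control) against the length of the longest listed transcript (bases, log scale), as deposited on the left and with each library's length trend removed on the right, for the 80 members by complex and the other tested genes in grey; genes beyond 0.8 on either side of 0 are not drawn. On the left 79.2% of the other genes under 1000 bases lie above 0, as do 77 of the 80 members, and on the right the members lie around a median of 0.037.

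The differences were not even over the libraries. Knockout library 1 held the highest value of 72 of the 80 members, that is 90%, against 24.3% of all genes tested and 62.1% of the other genes under 1000 bases. The lowest value was in control library 3 for 42 members and in control library 1 for 24. Of the 11934 genes tested, it was in control library 3 for 3811 and in control library 1 for 1003. The median deviation of the members from their own mean over the 6 libraries, on the log2(FPKM + 1) scale, was 0.20, 0.064 and -0.035 in knockout libraries 1 to 3. It was -0.081, -0.019 and -0.093 in control libraries 1 to 3. Knockout library 1 lay above every control library in 73 members, against 32.8% of all genes tested. Knockout library 2 did so in 59 members and knockout library 3 in 29, and for these no share of all genes tested is given. Without knockout library 1 the median log2 fold change was 0.076, and without knockout library 3 it was 0.20.

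The short genes outside the respiratory chain followed the same libraries, with median deviations of 0.16, 0.062 and -0.062 in the knockout and -0.079, -0.020 and -0.063 in the control. Once the length trend was removed, the members' median deviations were 0.029, 0.003 and 0.023 in the knockout and -0.004, -0.009 and -0.015 in the control. The highest value was then in knockout library 1 for 27 members and in knockout library 3 for 26, against 2583 and 1855 of the 11934 genes tested. Marker sums also differed between libraries. Those of the odontoblast list, which holds the collagen genes Col1a1 and Col1a2, were lowest in knockout library 1, at 6617 FPKM. They were at 7675 and 10319 FPKM in knockout libraries 2 and 3 and at 9086, 8605 and 10596 FPKM in the controls. Those of osteoclasts (Ctsk, Acp5 and Mmp9) were at 54.4, 53.0 and 70.4 FPKM in the knockout libraries and 77.0, 78.1 and 75.4 FPKM in the controls, with no overlap in any of the 3 genes, none of which passed the test. In whole molars fewer cells of a type and less RNA per cell cannot be told apart. The part of cell makeup in the members' values was not tested.

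**Figure D4:**
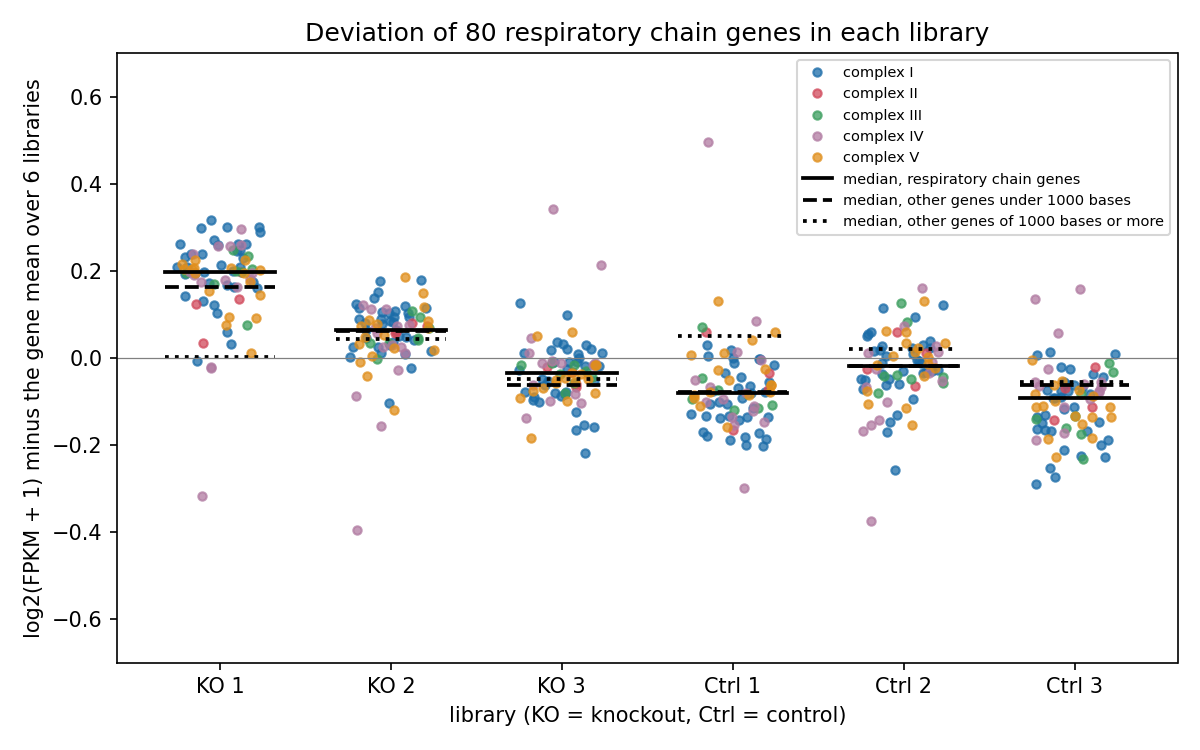
Deviation of each of the 80 tested genes from its own mean over the 6 libraries (vertical axis, log2(FPKM + 1) units), by library and coloured by complex, with bars for the median of the members (solid), of other genes under 1000 bases (dashed) and of other genes of 1000 bases or more (dotted). The members' median is 0.20 in knockout library 1 and -0.035 in knockout library 3, and the dashed bar lies near it in each library.

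Several complex IV subunits and the c subunit of complex V are made from paralogous genes, and in the molar the general isoforms were the abundant ones. Cox4i2, best known from lung and from oxygen-sensing cells, was nonetheless well expressed, at 33.98, 36.4 and 32.1 FPKM in the knockout libraries and 30.94, 36.37 and 38 FPKM in the control libraries. It made up 8.53 ± 0.567% of the Cox4i1 and Cox4i2 sum in the knockout and 9.49 ± 0.954% in the control (SD, n = 3 each), and the groups overlapped. Cox6b2, known as a testis isoform, was at 8.93 ± 1.13 and 8.79 ± 1.06 FPKM beside a mean of 214 FPKM for Cox6b1. Its share of the Cox6b sum was 3.70 ± 0.373% and 4.28 ± 0.545%, with all knockout libraries lower, though knockout library 1 (3.95%) and control library 1 (3.96%) were nearly equal. Cox8c, another testis isoform, was at 0.12 and 0.13 FPKM in knockout libraries 1 and 2 and is listed at 0 in the other 4 libraries. Cox7b, whose gene lies on the X chromosome, was at 56.8 ± 6.67 and 52.0 ± 3.46 FPKM.

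The heart and skeletal muscle isoforms were near the limit of detection. Cox6a2 was at 0.51, 0.43 and 1.18 FPKM in the knockout libraries and at 1.65, 0.69 and 1.1 FPKM in the control libraries, which is 5 to 19 reads per library. Cox7a1 was at 1.67, 1.55 and 2.43 FPKM against 1.87, 1.09 and 1.82 FPKM. Cox8b was at 0.62, 0 and 0.78 FPKM against 0.8, 0 and 1.1 FPKM. Each of these genes was higher in knockout library 3 and control libraries 1 and 3 than in the other 3 libraries. For Cox7a1 this order rests on 11 rebuilt reads in control libraries 1 and 3 against 10 in knockout library 1. For Cox8b it rests on 5 in knockout library 3 and control library 1 against 4 in knockout library 1. The order is therefore not firm for either gene. The sum of 12 muscle markers was 15.62, 17.53 and 88.1 FPKM in the knockout libraries and 81.26, 9.33 and 59.5 FPKM in the control libraries. Cox6a2 had the lowest fold change of all members, -0.33 on the log2 scale with a 95% interval of -0.74 to 0.078, and the part of muscle tissue in it was not tested. With so few reads the value moved with the settings, to -0.67 with a pseudocount of 0.1, -0.72 with limma-voom, and between -0.52 and -0.17 with 1 library left out. Cox7a2, the general partner of Cox7a1, was at 91.41, 83.17 and 75.69 FPKM against 61.89, 76.99 and 72.31 FPKM.

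The c subunit, which forms the rotating ring of ATP synthase, is encoded by Atp5g1, Atp5g2 and Atp5g3, whose mature proteins are the same. Atp5g3 was the most abundant, at 293.13, 270.2 and 240.99 FPKM in the knockout libraries and 246.09, 261.21 and 223.77 FPKM in the control libraries. Its share of the 3 genes was 41.6 ± 0.751% in the knockout and 40.0 ± 0.816% in the control (SD, n = 3 each), with all knockout libraries higher. That of Atp5g2 was 36.6 ± 1.07% and 37.8 ± 1.15%, and that of Atp5g1 was 21.7 ± 0.908% and 22.2 ± 0.401%. Over the 7 isoform shares computed, the exact two-sided permutation p was lowest for Atp5g3 and Cox6b2, at 0.1, which is the smallest that 3 against 3 libraries allow, and was 0.35 after Benjamini-Hochberg adjustment. No share passed the threshold.

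**Figure D5:**
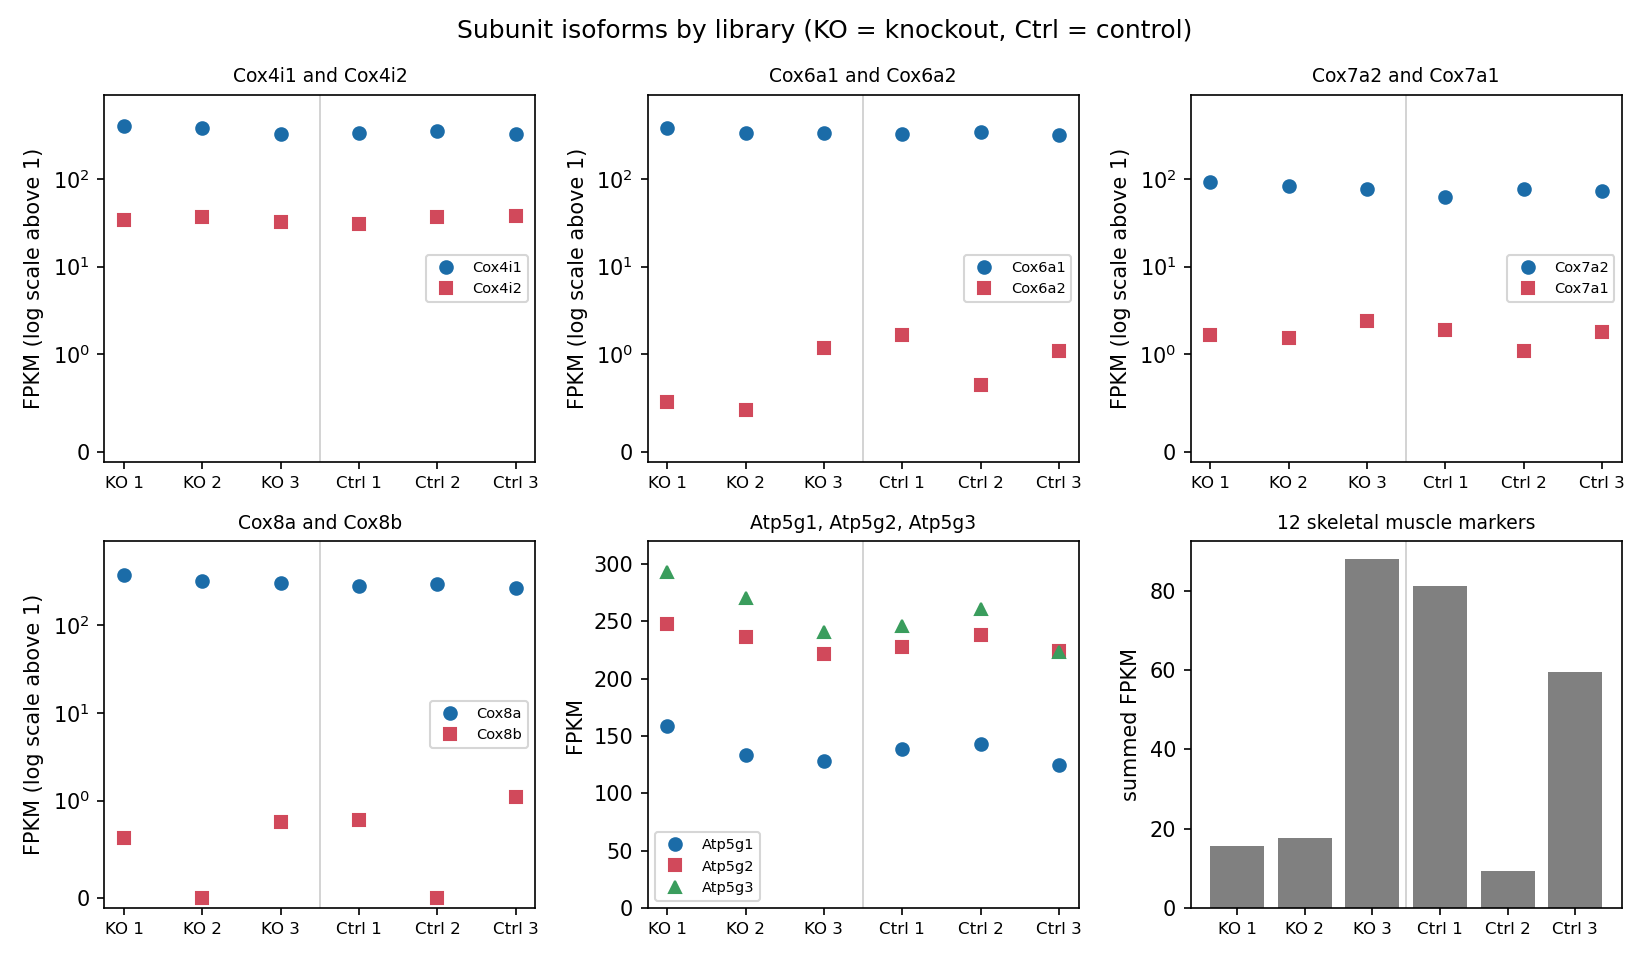
Levels of paralogous subunit genes by library (FPKM, on a scale that is logarithmic above 1 except for the Atp5g genes), and the summed FPKM of 12 skeletal muscle markers as bars. The muscle isoforms Cox6a2, Cox7a1 and Cox8b lie near 1 FPKM, and the muscle sum is lowest, at 9.33 FPKM, in control library 2.

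Genes that work with the chain were read from lists, in none of which a gene passed the test (limma-trend, 0 called in each). Of 10 electron carriers and subunits that the symbol rule leaves out, 9 had a fold change above 0, with a median of 0.11, and 0.035 without the length trend. The most abundant were Usmg5, a small protein of the ATP synthase membrane sector, at 182 ± 21.3 FPKM in knockout libraries and 148 ± 0.979 FPKM in controls (SD, n = 3 each), and 2010107E04Rik at 138 ± 12.5 and 120 ± 2.40 FPKM. Ndufa4l2, a paralogue of Ndufa4 that is induced by low oxygen, went the other way, at 7.8, 8.16 and 8.22 FPKM in the knockout libraries and 15.59, 11.85 and 10.79 FPKM in the control libraries. Its groups did not overlap, and its log2 fold change was -0.59 (SE 0.11, limma-trend, adjusted p = 0.242); it is named here after its values were seen.

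Of 77 mitochondrial ribosome genes tested, 74 had a fold change above 0, with a median of 0.11, and 0.034 without the length trend. The most abundant were Mrpl52, with a log2 fold change of 0.12, and Mrpl24, with 0.20. Of 16 tricarboxylic acid cycle genes, 13 were above 0, with medians of 0.065 and 0.042. The most abundant, Mdh2 (malate dehydrogenase) and Cs (citrate synthase), had log2 fold changes of 0.10 and 0.087. Of 44 assembly factors tested, 32 were above 0, with medians of 0.063 and 0.006, and the most abundant, Cox20 and Uqcc2, had log2 fold changes of 0.10 and 0.070. Of 14 regulators of mitochondrial gene expression, 6 were above 0, with medians of -0.053 and -0.025. The most abundant of these were Slirp, which stabilises mitochondrial messenger RNA, with a log2 fold change of 0.31, and Yy1, with 0.065.

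The promoters of the respiratory chain genes were searched for letters of the factors named at the start. RefSeq windows on GRCm38.p6, 250 bases before to 50 bases after the transcription start, were matched for 68 of the 82 members and for 9573 genes tested. Both strands were searched, and 0 matches of different motifs overlapped. The NRF1 letters GCGCNTGCG were found for 24 members, that is 35.3%, against 15.8% of the tested genes. The YY1 letters AAGATGGCG were found for 8 members, that is 11.8%, against 3.70%. The GABPA letters CCGGAAG were found for 16 members, that is 23.5%, against 20.3%. At least 1 of these was found for 39 members, that is 57.4%, against 34.7%. These are letter matches and not measured binding, and their relation to the fold changes was not tested.

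The following 100-base stretches, 1 from each complex, show such matches in members whose values are given here or whose groups did not overlap; they were chosen after the values were seen. Each is written 5′ to 3′ on the minus strand, the strand of its gene, with the matched letters in capitals. In Atp5k the capitals hold an NRF1 match on either strand, since those letters read the same on both. Cox6b1 and Uqcr11 show a GABPA match, Ndufs6 an NRF1 match, and Sdhd an NRF1 match followed by a GABPA match.
Ndufs6, chr13:73328483-73328582: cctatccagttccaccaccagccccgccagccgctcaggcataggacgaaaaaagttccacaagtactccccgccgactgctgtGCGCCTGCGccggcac
Sdhd, chr9:50603850-50603949: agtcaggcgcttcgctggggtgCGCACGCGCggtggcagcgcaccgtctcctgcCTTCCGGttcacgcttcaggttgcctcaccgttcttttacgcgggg
Uqcr11, chr10:80406834-80406933: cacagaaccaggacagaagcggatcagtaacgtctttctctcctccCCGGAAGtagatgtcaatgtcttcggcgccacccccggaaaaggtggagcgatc
Cox6b1, chr7:30626115-30626214: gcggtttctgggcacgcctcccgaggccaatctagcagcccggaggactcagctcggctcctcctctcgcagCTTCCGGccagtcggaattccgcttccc
Atp5k, chr5:108434400-108434499: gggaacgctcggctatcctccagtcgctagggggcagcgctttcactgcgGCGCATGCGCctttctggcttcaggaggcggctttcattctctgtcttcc

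Ndufs6, an accessory subunit of complex I, was at 54.01, 51.8 and 51.27 FPKM in the knockout libraries and at 42.29, 49.15 and 39.98 FPKM in the control libraries. Its groups did not overlap. Sdhd was at 47.69, 46.26 and 42.69 FPKM against 41.52, 42.93 and 41.62 FPKM, and there knockout library 3 lay below control library 2.

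Some levels may rest on uncertain gene models, as FPKM is taken here to be divided by the listed length. The listed length was over 1.5 times the median length of the gene's coding transcripts in GENCODE M21 for 13 members. It is that of the longest transcript, so it can exceed this median in a sound model. Uqcrc1 is listed with 1656 bases and its longest coding transcript there has 1653, and Sdha with 2859 against 2900. Ndufa11, by contrast, is listed with 2661 bases while its longest coding transcript there has 918 bases. Its log2 fold change was 0.17, or 0.16 with the length trend removed, the top of the range given for the latter. Of the 82 members, 24 overlap another protein-coding gene, and 4 (Uqcrh, Atp5c1, Atp5k and Atp5l) have a pseudogene named after them that could share reads. Members above 10 FPKM, 76 in number, had at least 320 rebuilt reads in every library. Counting error was larger for the 4 tested members below that level (Cox6b2, Atp5s, Cox7a1 and Cox6a2). Its part in the small differences of the other members was not tested.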

How the data were processed

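Transcripts were measured in 6 molar libraries, 3 knockout and 3 control, grouped by the genotype in the labels. The authors' deposited table gives FPKM per gene and library, the authors' log2 ratio, p-value and q-value, and the longest transcript length, per the file headers. The submitters' processing notes name Bowtie2 and mm10. The FPKM tool, the annotation and the authors' test are named in no source used here. That FPKM divides by the listed length is assumed here, since the relation was checked only on low values of part of the genes. On that assumption a wrong length shifts a level but not a fold change as deposited. It does shift a fold change with the length trend removed.

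The 11934 genes that reached 1 FPKM in 3 or more libraries were tested on the log2(FPKM + 1) scale with limma-trend (limma 3.58.1, R 4.3.3), group being the sole term, and Benjamini-Hochberg adjustment over all of them at 0.05. Fold changes on this scale understate those of low genes. The test was checked on simulated data with noise drawn independently for each gene. Libraries here share deviations across genes, so that check does not show how the test performs on them. Depth was estimated from steps between low FPKM values, with 30 bases subtracted from the length. Of those values 85.4% to 88.3% came within 0.15 of whole reads (30% by chance), and reads were rebuilt only for an alternative and as a guide to depth. The length trend was removed by lowess per library. Positions come from GENCODE M21. Alternatives were other pseudocounts, filters, scalings and tools, a replicate block, and each library left out in turn.

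One gene is counted with the members but not reported here by name. The members and lists were chosen with earlier results of these data known. Named members are those called, the 2 most abundant and the smallest p in each direction per complex, the core subunits and the tissue isoforms. Of other lists the 2 most abundant genes are named. Other members in the text illustrate counts or sequences and were picked after their values were seen. Python 3.11.15, numpy 2.4.6, pandas 2.3.3, scipy 1.17.1 and matplotlib 3.10.9 were used.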

Additional observations from a re-analysis of the deposited data

How the results depend on the processing

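The count of members past the threshold was 0 under all 14 alternatives run. The median log2 fold change of the members was 0.076 to 0.20 with 1 library left out. It was 0.037 with the length trend removed, with or without the replicate block. Members whose groups do not overlap numbered 27 as reported, 8 with the length trend removed, and 27 to 58 with 1 library left out (58 without knockout library 3 and 42 without control library 2). The 58 were 57 higher and 1 lower in the knockout. Groups with fewer libraries separate more easily, so these counts are not comparable with the 27. No share of all genes tested is given for them. Over all genes, 1 passed as reported, 0 with no filter on low values, 3 with a filter at 5 FPKM, 2 with limma-voom and 1 to 6 with 1 library left out (6 without knockout library 3, 3 without control library 2). With no filter Wnt10a kept its log2 fold change of -0.79 at an adjusted p of 0.106 (limma-trend).

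Signs under the alternatives were followed for 38 genes only, which are Wnt10a and the tested members named by rule. Among these, with the length trend removed, with or without the block, the sign reversed for Atp5g1 (-0.062), Atp5g2 (-0.093), Cox6a1 (-0.062), Cox6b2 (-0.11), Cox7a1 (-0.017) and Uqcrc1 (-0.021). The list is not complete for the part: of all 80 tested members, 77 were above 0 as deposited and 64 with the length trend removed. Among the same 38 genes, with 1 library left out, the range spanned 0 for Atp5a1 (-0.00022 to 0.084), Atp5g1 (-0.049 to 0.10), Atp5g2 (-0.0074 to 0.073), Atp5s (-0.18 to 0.026), Cox4i2 (-0.12 to 0.024), Cox6b2 (-0.063 to 0.10), Ndufs7 (-0.0023 to 0.23), Sdha (-0.051 to 0.054) and Uqcrc1 (-0.085 to 0.094). The cause was not tested.

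The data did not show that the replicate numbers pair the samples, and the labels do not say: same-numbered libraries' deviations correlated at -0.062, 0.17 and 0.39. With the replicate block 28 members had an unadjusted p under 0.05, and 8 of all genes passed and 0 members, with a smallest adjusted p of 0.285 among them (limma-trend). No share of all genes tested is given for that unadjusted count. With 3 libraries a group, the median SE of a member was 0.081, which limits what the test can call.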
